A study of Mus musculus with 6 samples.

Results

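Collagens are the main structural proteins of connective tissue, and each collagen is a trimer of α chains that wind around each other as a triple helix. Fibrillar collagens build the banded fibrils of bone, skin and cartilage, type IV collagen forms the sheets of basement membranes, type VI collagen makes beaded filaments around cells, and FACIT collagens (fibril-associated collagens with interrupted triple helices) attach to the surface of fibrils. In cartilage the fibrils are of type II collagen, while types I and III are made by fibroblasts and by chondrocytes that lose their phenotype in culture.

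The collagen chain genes were taken as every gene of the expression table whose symbol is Col, a number, the letter a and a number, and 40 of the 16880 genes listed met this rule. By class they were 11 fibrillar, 6 basement membrane (type IV), 5 type VI, 7 FACIT and 11 other chains. Col6a6, Col9a1, Col9a2, Col13a1 and Col21a1 were not analysed here. The rule itself uses the symbol and no measured value.

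The data are 6 RNA-sequencing libraries of ATDC5, a mouse chondrogenic cell line, in 2 groups of 3. Both groups received IL-1β, an inflammatory cytokine, at 10 ng/mL, and one of them also received NP-G2-044, an inhibitor of the actin-bundling protein Fascin1, at 10 μmol/L, for 24 h according to the methods. The treatment label of the inhibitor group gives NP-G2-047 where its titles give NP-G2-044, and the paper's methods describe primary articular chondrocytes where the labels give ATDC5. Cells without IL-1β were not analysed here, so each comparison is of the inhibitor group with the IL-1β group, and the effect of IL-1β itself was not measured.

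The estimated reads assigned to genes summed to 16615824 to 17735860 per library. The mean squared difference between libraries, in units of the counting variance, was 1.54 to 2.39 within a group and at least 133.14 between groups. The cell line was checked against marker genes, a gene being called when its adjusted p (edgeR's quasi-likelihood test) was below 0.05 and its log2 fold change, inhibitor group over IL-1β group, was above 1 in size. Over all 11983 genes tested, 10.1% were called lower and 6.48% higher by this rule. The mesenchymal list was high in sum, mostly through Vim (vimentin), at 2208 ± 24.1 and 1326 ± 22.7 TPM in the IL-1β and inhibitor groups. Prrx1 was at 410 ± 11.3 and 129 ± 2.42 TPM (SD, n = 3 each). TPM is a level scaled for transcript length and for the depth of the library. The summed level of 12 mesenchymal genes was 3048 to 3111 TPM with IL-1β and 1894 to 1960 TPM with the inhibitor, with 3 of 9 tested genes called lower and 1 higher. The 3 called lower were Prrx1, Twist2, from 21.7 to 3.76 TPM, and Dcn, from 3.83 to 1.05 TPM. The tested genes of the list that rose were Pdgfra, the gene called higher, from 2.36 to 8.69 TPM, and Fn1, from 361 to 417 TPM. Thy1, a fibroblast surface marker of the list, had no read. Fap had 1 read against 0 and Lum 3 against 0. The chondrocyte markers were low, with a summed level of 16.9 to 18.4 TPM for the 8 listed genes with IL-1β and 21.4 to 23.3 TPM with the inhibitor, with 1 of 4 tested genes called lower and 1 higher, and Acan, Hapln1, Cnmd and Snorc were not analysed here. Sox5 and Sox9 held most of this sum with IL-1β and moved in opposite directions. Sox5, the gene called lower, fell from 10.3 to 2.27 TPM. Sox9 rose from 6.44 to 11.4 TPM, by less than the cutoff on size (0.85 in log2). Prg4, the gene called higher, rose from 0.563 to 8.23 TPM. Sox6 was tested and not called. Matn1 had no read and Comp had 6 reads against 7. Osteoblast markers summed to 30.7 to 33.2 and 18.4 to 19.7 TPM, with 2 of 5 tested genes called lower and none higher. The 2 were Sp7, with 156 reads against 33, and Alpl, with 129 against 6. Alpl passed the filter on low counts through the IL-1β group only. Epithelial genes reached at most 1.53 TPM in all, with none tested and no read for Epcam, Krt14 or Cldn4. Endothelial genes summed to 0.200 to 0.360 and 0.580 to 0.730 TPM, with 0 of 1 tested genes called. The blood and macrophage list had no read for Ptprc, and its sum rose from 11.3 to 14.4 TPM to 124 to 135 TPM through Cd68, a lysosomal protein, the 1 tested gene and the 1 called. The part of these markers in the collagen results was not tested. In these bulk libraries, fewer cells of a type and less RNA per cell cannot be told apart.

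Collagen transcripts fell as a whole with NP-G2-044. The summed level of the 40 genes was 1667, 1715 and 1667 TPM with IL-1β and 513.7, 522.3 and 499.3 TPM with the inhibitor. The groups did not overlap, and the mean of the sum was 3.29-fold lower with the inhibitor, 512 ± 11.6 against 1683 ± 27.9 TPM (SD, n = 3 each; log2 ratio −1.72; two-sided exact permutation test, p = 0.10, the smallest p that 3 against 3 libraries can give). In reads the sum was 274526 with IL-1β and 91818 with the inhibitor.

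All 5 classes were lower in sum, with no overlap between the groups in any of them. Type VI collagen had the largest fall of a class, 5.20-fold, from 228 ± 5.33 to 43.9 ± 1.86 TPM. The FACIT sum was 4.08-fold lower, from 23.9 ± 0.408 to 5.87 ± 0.0850 TPM. Fibrillar collagens held most of the collagen RNA and went from 1394 ± 29.4 to 444 ± 8.52 TPM, 3.14-fold lower. The remaining classes changed least in sum. Basement membrane chains were 1.97-fold lower, from 18.5 ± 1.28 to 9.38 ± 0.445 TPM, and the other chains 2.02-fold lower, from 17.6 ± 0.945 to 8.75 ± 0.947 TPM (SD, n = 3 each; exact permutation test, p = 0.10 in each class). The make-up of the collagen RNA moved with these unequal falls. The fibrillar share of summed collagen TPM was 82.9% ± 0.444 with IL-1β and 86.7% ± 0.361 with the inhibitor, and the type VI share was 13.6% ± 0.437 and 8.58% ± 0.173 (SD, n = 3 each; exact permutation test, p = 0.10 for both).

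**Figure D1:**
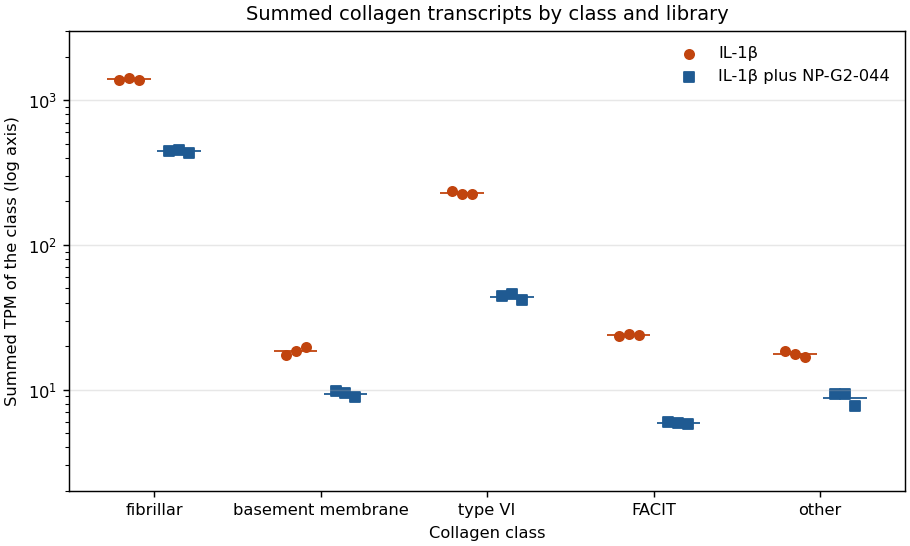
Summed TPM of the collagen chain genes of each class (log axis) in the 3 IL-1β libraries (circles) and the 3 IL-1β plus NP-G2-044 libraries (squares), with group means as lines. All squares lie below all circles in every class, and the distance is largest for type VI, 228 against 43.9 TPM on average.

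Single genes were read with the same rule. Of the 40 collagen genes, 22 had enough reads to be tested, and 15 of these were called lower and 1 higher. Over all 11983 genes tested, 10.1% were called lower and 6.48% higher. Of the other 6 collagen genes, 3 were lower and 1 higher with a log2 fold change under 1 in size, and 2 had an adjusted p above 0.05. By the adjusted p alone, 18 of the 22 were lower and 2 higher, where 39.8% of all genes tested were lower, 40.2% higher and 80.0% changed in either direction. The median log2 fold change was −1.84 for the 22 collagen genes and 0.00 for all genes tested. The filter on low counts let 4 of the 22 pass through 1 group only, namely Col2a1, Col17a1 and Col27a1 through IL-1β and Col5a3 through the inhibitor, and 3 of these 4 were among the calls. Without them 13 of 18 were called lower and 0 higher at the same cutoffs. In 17 of the 22 genes all inhibitor libraries lay below all IL-1β libraries, against 40.1% of all genes tested. Without the 4 genes that passed through 1 group only, this held for 15 of 18. The groups were apart in either direction in 19 of the 22, against 80.8% of all genes tested.

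**Figure D2:**
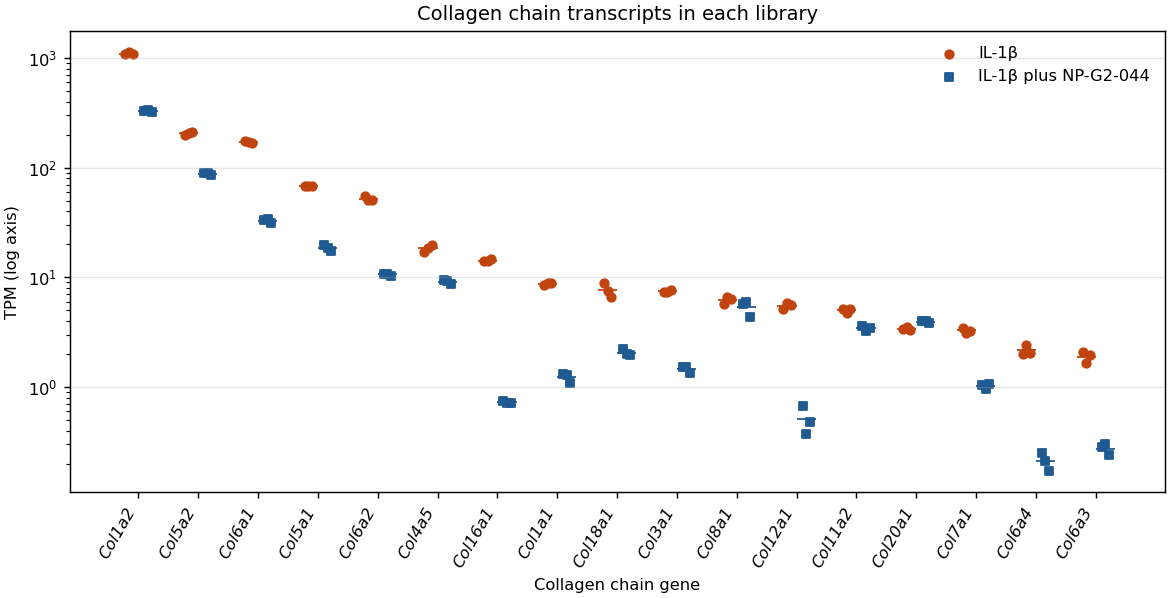
TPM (log axis) of the 17 collagen chain genes with a group mean of at least 1 TPM in each of the 3 IL-1β (circles) and 3 IL-1β plus NP-G2-044 libraries (squares), ordered by their mean with IL-1β, with group means as lines. Col20a1 is the only gene shown whose inhibitor libraries all lie above the IL-1β libraries, and Col8a1 the only one whose groups overlap.

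To show the DNA next to the start sites of genes that carry these changes, upstream sequences are given 5′ to 3′ for the most abundant chain, Col1a2, for Col3a1 of the same class, for the neighbours Col6a1 and Col6a2, and for Col16a1, the gene with the largest fall. They are RefSeq promoter sequences of build GRCm38.p6, cut before more than 30 bases of a GENCODE exon of the gene. Capitals mark matches within the printed bases, on either strand, to the CCAAT box (CCAAT), the TATA box (TATAAA), the GC box (GGGCGG), the AP-1 site (TGANTCA), the CArG box bound by SRF, and the κB site. Col6a1 has a match to the AP-1 site 90 to 84 bases before the RefSeq start, in the part that was cut.
Col1a2, chr6:4505368-4505520, plus strand: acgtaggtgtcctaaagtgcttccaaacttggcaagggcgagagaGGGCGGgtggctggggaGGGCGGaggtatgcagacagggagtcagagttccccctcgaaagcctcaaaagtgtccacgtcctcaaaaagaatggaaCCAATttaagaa
Col3a1, chr1:45311288-45311537, plus strand: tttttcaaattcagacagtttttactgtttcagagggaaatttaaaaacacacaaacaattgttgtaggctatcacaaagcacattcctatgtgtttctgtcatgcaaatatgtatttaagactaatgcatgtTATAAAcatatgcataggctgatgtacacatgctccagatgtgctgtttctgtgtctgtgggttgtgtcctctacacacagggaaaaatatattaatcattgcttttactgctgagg
Col6a1, chr10:76726139-76726294, minus strand: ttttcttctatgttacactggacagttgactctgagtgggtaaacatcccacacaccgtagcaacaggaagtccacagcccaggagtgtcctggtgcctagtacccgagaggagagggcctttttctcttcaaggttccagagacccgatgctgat
Col6a2, chr10:76623631-76623880, minus strand: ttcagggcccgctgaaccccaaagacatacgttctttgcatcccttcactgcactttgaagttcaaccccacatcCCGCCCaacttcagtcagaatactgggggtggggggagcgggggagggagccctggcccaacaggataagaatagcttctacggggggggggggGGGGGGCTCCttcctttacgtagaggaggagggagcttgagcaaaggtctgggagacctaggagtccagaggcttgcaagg
Col16a1, chr4:130047590-130047839, plus strand: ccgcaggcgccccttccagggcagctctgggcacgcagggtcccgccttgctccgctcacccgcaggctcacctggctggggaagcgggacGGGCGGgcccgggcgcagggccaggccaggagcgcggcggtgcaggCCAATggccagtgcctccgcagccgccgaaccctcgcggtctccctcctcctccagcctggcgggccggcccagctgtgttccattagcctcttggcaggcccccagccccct

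The 5 sequences are unlike each other in composition. Over the whole 250 bases before the RefSeq start, G and C made up 35.2% of the Col3a1 sequence, 56.0% of Col6a1, 59.2% of Col6a2, 62% of Col1a2 and 75.6% of Col16a1. Of the 22 tested collagen genes, 17 were matched in the table of RefSeq promoter sequences used here, and Col1a1, Col2a1, Col5a2, Col9a3 and Col12a1 were not. A GC box was found in 12 of the 17 genes, where 32.7% of the 32851 sequences of all genes held one. The CCAAT box was found in 8 of the 17, against 33.8% of all sequences, and the TATA box in 3, against 12.4%. The κB site matched in 3 genes (7.25% of all sequences) and the CArG box in 1 (1.47%). The AP-1 site matched in 1 gene (6.75%), Col6a1, in bases not printed above. A gene with several start sites was counted when any of its sequences held the motif, while the shares are of single sequences. This raises the counts of genes against the shares, so the 2 cannot be compared directly. A match is a match of letters, not evidence of binding.

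The type I chains were measured at very unequal levels. Col1a2 (Entrez gene 12843), which encodes the α2 chain of type I collagen, was the most abundant collagen transcript, at 1083.27, 1129.53 and 1082.42 TPM with IL-1β and at 329.09, 338.28 and 325.01 TPM with the inhibitor. The gene lies on chromosome 6 from 4505618 to 4541543 (GRCm38.p6). Every inhibitor library was far below every IL-1β library, and the log2 fold change was −1.70, with a standard error (SE) of 0.0268 (adjusted p = 1.77e-47). Col1a2 alone made up 65.3% ± 0.515 of collagen TPM with IL-1β and 64.6% ± 0.521 with the inhibitor (SD, n = 3 each; exact permutation test, p = 0.30), so its share moved by about the spread between libraries. Col1a1 (Entrez gene 12842), the gene of the α1 chain that type I collagen needs in every trimer, was at 8.56, 8.79 and 8.94 TPM with IL-1β and 1.32, 1.29 and 1.08 TPM with the inhibitor, a log2 fold change of −2.80 (SE 0.0880, adjusted p = 1.10e-33). Its share of collagen TPM was 0.521% ± 0.0135 and 0.240% ± 0.0212 (SD, n = 3 each). Within a library, Col1a2 was thus 121 to 129 times as high as Col1a1 with IL-1β and 249 to 301 times as high with the inhibitor, with no overlap (exact permutation test of the log2 ratios, p = 0.10). The log2 fold change of Col1a1 was the more negative by 1.10.

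Type V collagen, which joins type I fibrils and limits their width, was the next most abundant type. Col5a2 (Entrez gene 12832) was at 200.38, 208.95 and 209.35 TPM with IL-1β and 88.55, 88.82 and 86.42 TPM with the inhibitor, a log2 fold change of −1.20 (SE 0.0272, adjusted p = 3.51e-40). Col5a1 (Entrez gene 12831) was at 67.78, 67.99 and 67.90 TPM and at 19.70, 18.58 and 17.45 TPM, a log2 fold change of −1.83 (SE 0.0328, adjusted p = 5.82e-45). The groups were apart for both chains, but the falls were unequal. The ratio of Col5a2 to Col5a1 was 2.96 to 3.08 with IL-1β and 4.49 to 4.95 with the inhibitor (exact permutation test of the log2 ratios, p = 0.10). With the smaller fall, Col5a2 went from 12.3% ± 0.277 to 17.2% ± 0.158 of collagen TPM (SD, n = 3 each; exact permutation test, p = 0.10). Col5a3 (Entrez gene 53867), another chain of the type and the only collagen gene called higher, had 2, 7 and 6 reads against 22, 18 and 20 (log2 fold change 1.90, SE 0.374, adjusted p = 9.59e-06). Its level stayed at 0.303 ± 0.0351 TPM with the inhibitor (SD, n = 3), so the rise was of a transcript that was far below the other chains of its type in both groups.

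Among the remaining fibrillar chains, Col3a1 (Entrez gene 12825), whose product forms thin fibrils with type I collagen, was at 7.36, 7.40 and 7.59 TPM against 1.53, 1.53 and 1.35 TPM. The groups were apart, with a log2 fold change of −2.31 (SE 0.0895, adjusted p = 1.41e-29). Col11a2 (Entrez gene 12815), a chain of the type XI collagen of cartilage fibrils, was the fibrillar gene that fell least, at 5.10, 4.75 and 5.18 TPM against 3.59, 3.23 and 3.48 TPM. Its log2 fold change of −0.56 (SE 0.0799, adjusted p = 1.18e-08) was below the cutoff on size, and again no library overlapped. Its partner Col11a1 had 1 read in all 6 libraries. Col2a1 (Entrez gene 12824), the major chain of cartilage fibrils and another partner of type XI, had 12, 10 and 10 reads with IL-1β and 1, 3 and 2 with the inhibitor. It was called lower (log2 fold change −2.41, SE 0.525, adjusted p = 4.76e-05). Pooled over a group and divided by the group's total, its reads had a ratio of inhibitor to IL-1β of 0.178 (exact 95% interval 0.0609 to 0.432, for counting error only). Col11a2 was therefore the most abundant measured chain of the cartilage fibril types II and XI in both groups. Col27a1 (Entrez gene 373864), another cartilage fibril chain, had 27, 15 and 16 reads with IL-1β and 4, 7 and 0 with the inhibitor, a pooled ratio of 0.180 (exact 95% interval 0.0853 to 0.347) and a log2 fold change of −2.43 (SE 0.459, adjusted p = 1.25e-05). On the scale of log2(TPM + 1), the changes of Col2a1, Col27a1 and Col5a3 were −0.23, −0.31 and 0.27 and thus short of the cutoff on size, as that scale compresses low levels. Col24a1 had 6 reads against 2.

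**Figure D3:**
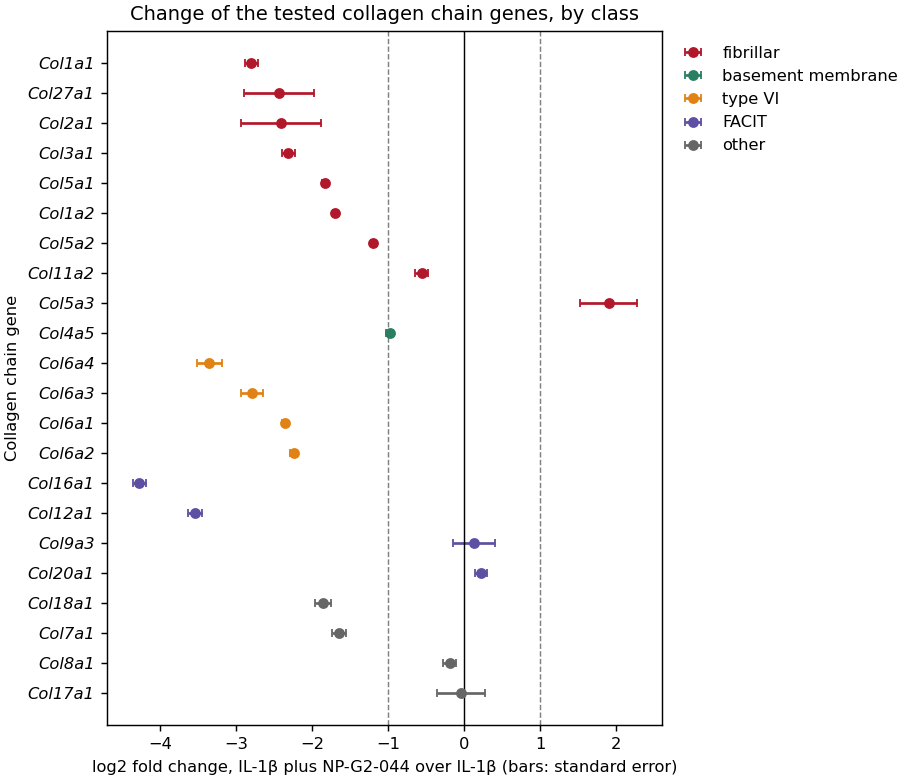
Log2 fold change, inhibitor group over IL-1β group (edgeR, bars: standard error) for the 22 tested collagen chain genes, coloured by class, with dashed lines at the cutoffs of −1 and 1. The 4 type VI genes lie between −3.35 and −2.24, while the FACIT genes split into Col16a1 and Col12a1 below −3 and Col9a3 and Col20a1 near 0.

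Type VI was the class in which every tested chain was called, 4 of 4 lower. Col6a1 (Entrez gene 12833) was at 175.48, 171.51 and 169.49 TPM with IL-1β and 33.19, 34.17 and 31.16 TPM with the inhibitor, a log2 fold change of −2.36 (SE 0.0335, adjusted p = 1.28e-49). Col6a2 (Entrez gene 12834) was at 54.78, 51.04 and 50.60 TPM and at 10.73, 10.75 and 10.27 TPM, a log2 fold change of −2.24 (SE 0.0467, adjusted p = 6.09e-42). Both genes encode short chains that enter the same type VI trimer, and their ratio was nearly kept. It was 3.20 to 3.36 with IL-1β and 3.03 to 3.18 with the inhibitor, a difference of log2 fold changes of −0.12 (exact permutation test of the log2 ratios, p = 0.10). Col6a3 (Entrez gene 12835), the long chain of the trimer, was far lower in level, at 2.07, 1.65 and 1.94 TPM against 0.28, 0.30 and 0.24 TPM. Col6a1 was 84.8 to 104 times as high as Col6a3 with IL-1β and 114 to 130 times as high with the inhibitor. Col6a4 (Entrez gene 68553), an alternative long chain, was at 1.99, 2.40 and 2.05 TPM against 0.25, 0.21 and 0.17 TPM. The long chains thus differed little from each other in level with IL-1β, and their log2 fold changes were −2.79 (SE 0.142, adjusted p = 2.51e-24) and −3.35 (SE 0.166, adjusted p = 7.00e-25). In all 4 genes every inhibitor library was below every IL-1β library. Col6a5 had 1 read against 4.

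The basement membrane class was nearly a single gene. Col4a5 (Entrez gene 12830), which encodes the α5 chain of type IV collagen, was at 17.11, 18.36 and 19.63 TPM with IL-1β and 9.43, 9.23 and 8.66 TPM with the inhibitor. All inhibitor libraries were below all IL-1β libraries, and the log2 fold change of −0.98 (SE 0.0476, adjusted p = 4.19e-25) was just under the cutoff on size. Without IL-1β replicate 1 it was −1.02, and with a filter of 10 CPM in 3 libraries −1.01, and it was called in both. The partners that the α5 chain has in trimers had few reads. Col4a3 had 7 reads against 23, Col4a4 4 against 22, and Col4a6 4 against 5 over the 3 libraries of each group. Col4a1 and Col4a2, the chains of the type IV collagen found in most basement membranes, had 2 reads against 1 and 11 against 19. Read ratios of these genes are wide. The ratio of pooled reads, inhibitor over IL-1β, was 3.12 for Col4a3 (exact 95% interval 1.30 to 8.61), 5.23 for Col4a4 (1.77 to 20.9) and 1.64 for Col4a2 (0.742 to 3.82). Col4a3 and Col4a4 were below the filter and were not tested. Fitted without it, their log2 fold changes were 1.60 (adjusted p = 0.0185) and 2.29 (adjusted p = 0.00285) from edgeR's test, and the other untested collagen genes past both cutoffs in that fit, Col22a1 and Col15a1, had log2 fold changes of −3.63 (adjusted p = 0.00075) and −2.83 (adjusted p = 0.0293).

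The FACIT genes held the largest falls of all collagen chains beside genes that hardly moved. Col16a1 (Entrez gene 107581; chromosome 4, 130047817 to 130099277, GRCm38.p6), which encodes a minor chain found with fibrils in several tissues, was at 14.02, 14.12 and 14.52 TPM with IL-1β and 0.74, 0.72 and 0.71 TPM with the inhibitor. The fall was 19.3-fold, a log2 fold change of −4.27 (SE 0.0915, adjusted p = 2.15e-41), and the libraries of a group were close to each other. Col12a1 (Entrez gene 12816), whose product decorates type I fibrils in tendon and ligament, was at 5.14, 5.87 and 5.55 TPM against 0.67, 0.37 and 0.48 TPM. It was 11.6-fold lower, with a log2 fold change of −3.54 (SE 0.0943, adjusted p = 9.37e-37). Col20a1 (Entrez gene 73368) was at 3.39, 3.51 and 3.30 TPM with IL-1β and 4.02, 4.0 and 3.80 TPM with the inhibitor. All 3 inhibitor libraries were above the IL-1β libraries, by a log2 fold change of 0.22 (SE 0.0816, adjusted p = 0.0124), but the adjusted p was 0.069 with DESeq2 and 0.0522 with limma on log2(TPM + 1). Col9a3 (Entrez gene 12841), a chain of the type IX collagen on cartilage fibrils, had 22, 16 and 14 reads against 15, 22 and 23, and its groups overlapped. The ratio of its pooled reads was 1.10 (exact 95% interval 0.744 to 1.62; log2 fold change 0.13, adjusted p = 0.664), which leaves room for a change in either direction. Col22a1 had 16 reads against 1, Col14a1 4 against 1 and Col19a1 1 against 0. The fold of Col16a1 over Col12a1 went from 2.41 to 2.73 with IL-1β to 1.10 to 1.95 with the inhibitor, with no overlap (exact permutation test of the log2 ratios, p = 0.10).

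Among the other chains, Col18a1 (Entrez gene 12822), whose product carries heparan sulfate chains and yields endostatin, was at 8.92, 7.42 and 6.60 TPM against 2.20, 1.98 and 1.94 TPM, a log2 fold change of −1.85 (SE 0.105, adjusted p = 7.53e-16). Col7a1 (Entrez gene 12836), the chain of the anchoring fibrils of skin, was at 3.48, 3.13 and 3.25 TPM against 1.04, 0.96 and 1.06 TPM, a log2 fold change of −1.65 (SE 0.0932, adjusted p = 1.76e-22). These were the genes of the class that were called, both with no overlap. Col8a1 (Entrez gene 12837), a short-chain network collagen, was at 5.70, 6.67 and 6.37 TPM against 5.72, 5.94 and 4.35 TPM. Its groups overlapped, and the log2 fold change of −0.19 (adjusted p = 0.0444) did not hold with every library left out. Its adjusted p was 0.467 without inhibitor replicate 3, where the log2 fold change was −0.07, and 0.16 and 0.103 without IL-1β replicates 2 and 3. With DESeq2 it was 0.0983, and with limma on log2(TPM + 1) 0.083. Col17a1 (Entrez gene 12821), the transmembrane collagen of hemidesmosomes, had 42 reads against 43, a pooled ratio of 0.973 (exact 95% interval 0.621 to 1.53; log2 fold change −0.04, adjusted p = 0.917). Col10a1, the collagen of hypertrophic chondrocytes, had 2 reads against 3, too few to show a difference at this depth.

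Of the 40 genes, 19 had fewer than 60 reads over the 6 libraries, and together these had 123 reads with IL-1β and 103 with the inhibitor, against 274403 and 91715 for the other 21. The 19 were Col2a1, Col23a1, Col4a2, Col4a3, Col4a4, Col22a1, Col15a1, Col4a6, Col24a1, Col6a5, Col10a1, Col14a1, Col4a1, Col25a1, Col11a1, Col19a1, Col28a1, Col26a1 and Col8a2, and only Col2a1 among them was tested. Col26a1 and Col8a2 had no read. Outside the genes already described, Col23a1 had 22 reads against 13, a ratio of 0.561 (exact 95% interval 0.260 to 1.16), Col15a1 had 9 against 1, Col25a1 had 1 against 1 and Col28a1 had 0 against 1. The low genes did not move together. Of those with at least 20 reads, Col2a1 was the only one with an interval wholly below 1, Col4a3 and Col4a4 had intervals wholly above 1, and those of Col23a1 and Col4a2 included 1.

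**Figure D4:**
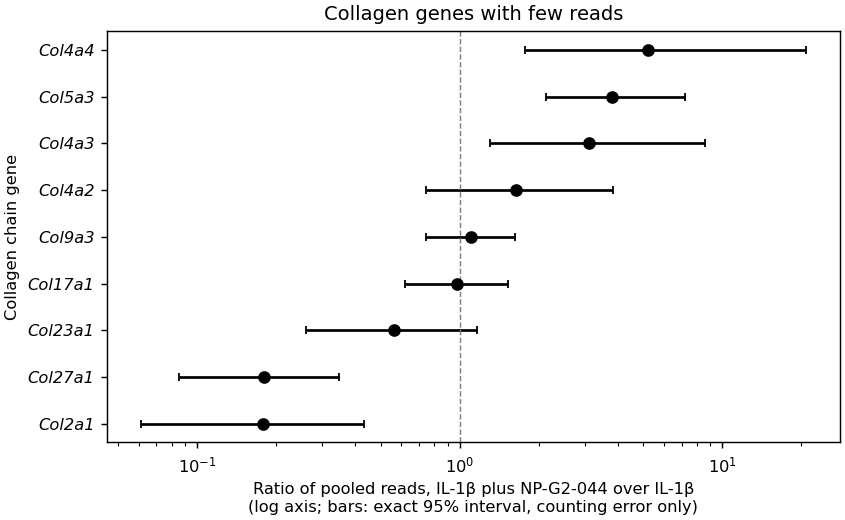
Ratio of pooled reads, inhibitor group over IL-1β group (log axis), with exact 95% intervals for counting error, for the 9 collagen chain genes with 20 to 119 reads in all. The intervals of Col9a3, Col17a1, Col23a1 and Col4a2 include 1, those of Col2a1 and Col27a1 lie below it, and those of Col4a3, Col4a4 and Col5a3 lie above it.

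Several collagen genes are neighbours in the genome, and their levels were compared by position in GRCm38.p6. Col3a1 (chromosome 1, 45311538 to 45349706) and Col5a2 (45374331 to 45503282) are 24624 bases apart with 0 protein-coding genes between them, yet Col5a2 was 27.2 to 28.2 times as high as Col3a1 with IL-1β and 57.9 to 64.0 times as high with the inhibitor. Col6a2 (chromosome 10, 76595756 to 76623630) and Col6a1 (76708792 to 76726044) are 85161 bases apart, and fell alike. Col4a5 and Col4a6 start on opposite strands of chromosome X with 1274 bases between the genes, and only Col4a5 was expressed above 1 TPM. The rarely read pairs Col4a1 with Col4a2 and Col4a3 with Col4a4 overlap each other by 85 and 114 bases. Exon overlaps with other genes in GENCODE vM21 covered at most 6.07% of the exon bases of a tested collagen gene, the highest being 234 bases of Col9a3 shared with Tcfl5 on the opposite strand, which had 5 reads. The sources used here do not say whether reads were counted by strand.

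**Figure D5:**
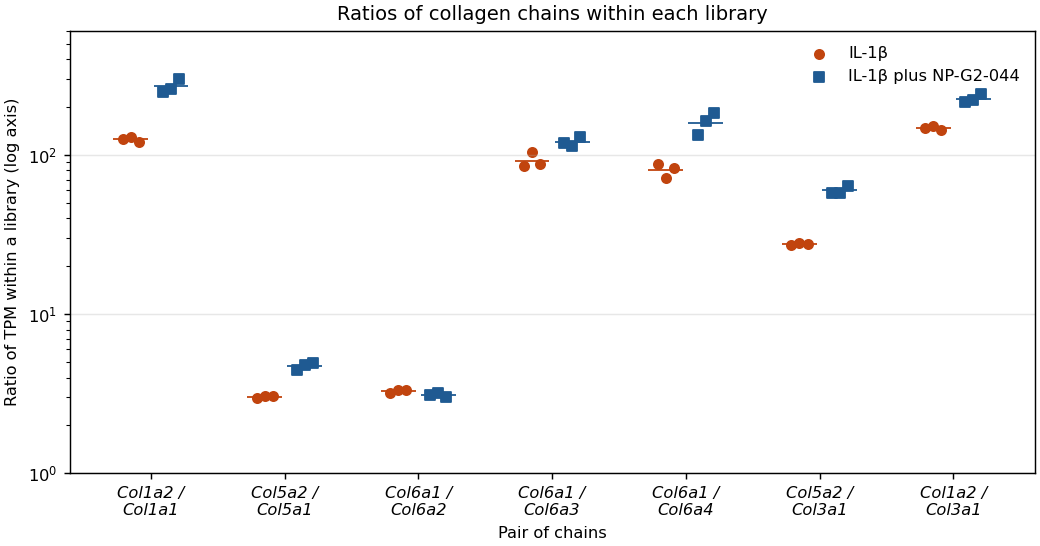
Ratio of TPM of 7 pairs of collagen chains within each library (log axis) for the 3 IL-1β (circles) and 3 IL-1β plus NP-G2-044 libraries (squares), with group means as lines. The Col6a1 to Col6a2 ratio stays near 3, while Col1a2 over Col1a1 goes from a mean of 125 to 271 and Col5a2 over Col3a1 from at most 28.2 to at least 57.9.

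In all, 8 such ratios were compared, and each had a p of 0.10 in the exact permutation test, which is also the value after Benjamini-Hochberg adjustment over the 8. Most of these 8 ratios, of chosen pairs of which several share a chain, moved toward the more abundant chain. The exceptions were Col6a1 over Col6a2 and Col16a1 over Col12a1, where the more abundant chain fell more.

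Collagen chains depend on enzymes that modify, fold, secrete, trim and crosslink them, and lists of these genes were read in the same test. Of each list, the called genes beyond the 2 with the largest change, and the genes not called, were named after their values were seen. Of 16 tested genes that modify or fold chains, 2 were called lower and 0 higher, 8 more were lower and 3 higher with smaller changes, and the median log2 fold change was −0.27. Over all genes tested 10.1% were called lower and 80.0% had an adjusted p below 0.05. The 2 calls and the 13 genes past the adjusted p in either direction were near these shares. By direction, 39.8% of all genes tested were lower and 40.2% higher by the adjusted p. In the list, lower genes outnumbered higher ones, 2 called and 8 smaller against 3. The called genes were P4ha3, a prolyl 4-hydroxylase subunit, from 13.8 ± 0.927 to 1.79 ± 0.440 TPM (log2 fold change −2.90, adjusted p = 4.15e-27), and Plod2, a lysyl hydroxylase, from 49.8 ± 1.88 to 19.4 ± 1.32 TPM (−1.32, adjusted p = 1.95e-32; SD, n = 3 each). Serpinh1, the collagen chaperone HSP47, was by contrast higher, from 322 ± 13.4 to 374 ± 4.86 TPM (log2 fold change 0.25, adjusted p = 1.30e-10).

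Of 9 tested genes of secretion and propeptide removal, 4 were called lower and 0 higher, with a median of −0.66, where 10.1% of all genes tested were called lower and 6.48% higher. Adamts3 and Adamts2 encode proteases that cut the amino propeptides of fibrillar procollagens. Adamts3, which passed the filter on low counts through the IL-1β group only, had 140 reads against 3, a pooled ratio of 0.0204 (exact 95% interval 0.00415 to 0.0607), and Adamts2 went from 2.97 ± 0.180 to 0.403 ± 0.0306 TPM (SD, n = 3 each; log2 fold change −2.85, adjusted p = 1.71e-26). Pcolce, which enhances removal of the carboxyl propeptide, had the highest level of the list with IL-1β and went from 766 ± 7.79 to 108 ± 0.653 TPM (SD, n = 3 each; log2 fold change −2.80, adjusted p = 1.15e-54). The related Pcolce2 was also called lower (log2 fold change −1.10, adjusted p = 2.61e-17). Adamts14, a further Adamts gene of the list, was instead higher, from 5.50 ± 0.0902 to 8.11 ± 0.752 TPM (SD, n = 3 each; log2 fold change 0.59, adjusted p = 1.22e-10). Its level was above those of Adamts2 and Adamts3 in both groups.

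Crosslinking genes split evenly. Of the 4 tested, 2 were called lower, 2 were higher by less than the cutoff, and the median was −0.63. Over all genes tested 10.1% were called lower and 40.2% were higher by the adjusted p. Lox, lysyl oxidase, went from 153 ± 5.37 to 9.19 ± 0.606 TPM (SD, n = 3 each; log2 fold change −4.04, adjusted p = 6.48e-57), and Loxl3 from 3.81 ± 0.114 to 1.45 ± 0.0586 TPM (−1.37, adjusted p = 4.29e-15). Loxl1 and Loxl4 had log2 fold changes of 0.30 and 0.11 (adjusted p = 0.0222 and 0.0170), and the libraries of the groups overlapped for Loxl1.

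Among 6 tested collagen receptors, 2 were called lower and 1 higher, with a median of −0.71, where 10.1% of all genes tested were called lower and 6.48% higher. Itga11, a collagen-binding integrin chain that passed the filter through the IL-1β group only, had 78 reads with IL-1β and none with the inhibitor, at least 27.4-fold lower when the inhibitor group is set to the floor of 3 reads over its libraries. Mrc2, an endocytic receptor that takes up collagen, went from 75.0 ± 3.40 to 25.7 ± 0.558 TPM (SD, n = 3 each; log2 fold change −1.51, adjusted p = 3.58e-41). The discoidin domain receptors, tyrosine kinases activated by collagen, moved in opposite directions. Ddr1 was lower, from 34.3 ± 1.62 to 17.8 ± 1.18 TPM (log2 fold change −0.92, adjusted p = 1.25e-24), and Ddr2 was the gene called higher, from 36.9 ± 2.04 to 74.1 ± 1.46 TPM (log2 fold change 1.04, adjusted p = 4.13e-35; SD, n = 3 each).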

How the data were processed

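RNA of 6 ATDC5 samples was sequenced from TruSeq libraries, with quantification by BGI according to the methods. The submitters' processing notes name cutadapt, HISAT2 2.0, StringTie and mm10, and the sources used here give neither the annotation nor the counting settings. The expected counts deposited by the authors are estimated reads per gene, of which 10.17% to 11.06% per library were not whole. The deposited TPM and FPKM were scaled within each library by the authors, of which only TPM was used, and the deposited group means were left out.

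Counts were rounded, filtered with filterByExpr (minimum count 10), normalized with TMM and compared with edgeR 4.0.16 (glmQLFit robust, glmQLFTest) in R 4.3.3 over all 11983 genes tested, with Benjamini-Hochberg adjustment and no covariate. Calls needed a log2 fold change above 1 in size at an adjusted p below 0.05, as the study set them. Single values per library were compared with two-sided exact permutation tests. Intervals are exact Clopper-Pearson intervals and, like floors, cover counting error only. The labels do not say that replicates were separate cultures, while the methods call them biological, so p-values measure the spread between these samples.

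Per-library values are given for members past both cutoffs or with a group mean of at least 1 TPM, reads in place of TPM where few; members under 60 reads are given by summed reads, and pathway genes by the 2 largest called changes of a list. The members and lists were chosen with earlier results of these data known. Alternatives were DESeq2 1.42.0, its size factors, library size alone, limma 3.58.1 on log2(TPM + 1), no or a stricter filter, a replicate block, and each library left out in turn.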

Additional observations from a re-analysis of the deposited data

How the results depend on the processing

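The count of 15 collagen genes called lower was 15 to 16 with each library left out, 17 without the filter on low counts, through Col22a1 and Col15a1, 13 with limma on log2(TPM + 1), and 12 with a filter of 10 CPM or more in 3 libraries, which tests 15 collagen genes. The 12 include Col4a5, which passed the cutoff on size with that filter. The 1 gene called higher, Col5a3, became 3 without the filter, through Col4a3 and Col4a4, and 0 with limma on log2(TPM + 1) or with the stricter filter, which Col5a3 does not pass. Over all genes, 1211 lower and 776 higher calls became 680 and 484 with that stricter filter, and 802 and 514 with limma. The median log2 fold change of the tested collagen genes was −1.84, and it was −1.57 without the filter, over 38 genes, −1.20 with limma on log2(TPM + 1), and −1.89 to −1.77 with each library left out. The log2 ratio of summed collagen TPM was −1.72, and −1.65 with CPM, which does not scale by transcript length. It was −1.69 without Col1a2. Single genes near 0 changed sign with a library left out. Col9a3 ranged from −0.01 (without IL-1β replicate 3) to 0.34, and Col17a1 from −0.23 to 0.16, being 0.07 without IL-1β replicate 1 and 0.16 without inhibitor replicate 1. The libraries share replicate numbers 1 to 3, but deviations of same-numbered libraries from their group means correlated by only −0.093, −0.024 and 0.026 across genes. Libraries of unlike number correlated by −0.107 to 0.129, so no shared deviation by number was seen. Whether same-numbered cultures were handled together cannot be told from these values. With the replicate number as a block, 15 collagen genes were called lower and 1 higher, and the median was −1.84. For the 19 genes under 60 reads, depth limits what could be seen.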
